A study of Oryctolagus cuniculus with 8 samples.

Results

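The nuclear genes of the mitochondrial ribosome and of the mitochondrial protein import machinery were followed in the forebrain of preterm rabbit pups given dexamethasone or saline. Members were all non-control probes whose array description names a mitochondrial ribosomal protein or a translocase of the inner or outer mitochondrial membrane, which gave 168 probes of 54 genes out of 43603 probes on the array. They comprise 81 probes of 28 large subunit genes (MRPL), 41 probes of 14 small subunit genes (MRPS), 28 probes of 7 inner membrane translocase genes (TIMM) and 18 probes of 5 outer membrane translocase genes (TOMM). The descriptions also bring in TOMM34, a cytosolic co-chaperone, the TOMM paralogs TOMM20L and TOMM40L, and MRPS36, which RefSeq lists as KGD4, a subunit of the alpha-ketoglutarate dehydrogenase complex. RefSeq gave a symbol for 50 of the 55 loci, and TIMM23, MRPL48, MRPS17 and MRPS28 keep the name printed on the array. Of the members, 129 probes of 45 genes could be tested.

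The 8 samples were forebrain total RNA, 4 from dexamethasone pups and 4 from saline pups. All were New Zealand rabbits born by caesarean section at gestational day 29, where term is 32 days, raised on formula in an incubator and killed at postnatal day 14. Dexamethasone, a synthetic glucocorticoid, was injected into muscle in 2 daily doses of 0.25 mg/kg over 5 days or fewer, and the other pups received the saline vehicle. The design text calls the samples biological replicates, and the labels used here do not say how many pups gave each one. Forebrain tissue is a mixture, so fewer cells of a type and less RNA per cell cannot be told apart in what follows.

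Mitochondria make a small set of respiratory chain proteins on their own ribosome, whose RNA is encoded in mitochondrial DNA and whose proteins are all made in the cytosol and imported. Import starts at the TOM complex, where TOMM20 receives proteins with a cleavable presequence and TOMM70 receives carrier proteins. At the inner membrane, TIMM23, TIMM17A and TIMM50 belong to the presequence translocase, TIMM22 inserts carrier proteins, and TIMM8A, TIMM8B and TIMM10 are small chaperones of the space between the membranes. In brain, nerve cells depend heavily on this machinery because they draw most of their ATP from respiration.

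The samples were hybridised on 4 arrays of 2 colours, each array holding 2 samples of the same group, with odd-numbered samples in Cy3 and even-numbered ones in Cy5. All dexamethasone arrays lay on one slide and scan and all saline arrays on another, so slide and treatment cannot be told apart, and the small number of arrays limits the precision. Spots well above background made up 47.7% to 64.3% of each dexamethasone sample and 39.1% to 59.7% of each saline sample. The member probes were far more often detected, 160 to 163 of the 168 in each dexamethasone sample and 160 to 162 in each saline sample. The scanner flagged 1 to 6 member probes as outliers in a dexamethasone sample, against 10 to 42 in a saline sample, most of them in saline 3 and 4. The 10 spike-in probes, whose RNA is added in known amounts, lay 0.30 to 0.56 lower in log2 intensity in the dexamethasone samples, with a median difference of -0.41, so all levels below are relative to the array. All 7 neuron markers on the array were well above background in all 8 samples, as were 7 of 9 astrocyte markers.

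No member differed between dexamethasone and saline at an adjusted p under 0.05 (limma with dye as a term and array as a random block, Benjamini-Hochberg over all 20707 probes tested). Over all tested probes, 7 passed, which is 0.0338%, and the smallest adjusted p of a member was 0.271. At an unadjusted p under 0.05, 12 of the 129 member probes were higher (9.30%) and 3 lower (2.33%) with dexamethasone, together 11.6%. The same limit took in 6.73% of all tested probes on the higher side and 5.95% on the lower side, together 12.7%. The total for the members was thus close to that of the array, with a larger share on the higher side and a smaller one on the lower side, a split that was not tested. In 10 member probes all dexamethasone samples lay above all saline samples and in 3 they lay below, against 6.55% and 5.86% of all tested probes. The fitted log2 difference, dexamethasone minus saline, was above 0 in 79 members (61.2%), against 56.4% of all tested probes. Its median was 0.06 over members and 0.03 over all tested probes, and a typical standard error of a member was 0.13. These small values carry no test of their own.

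**Figure D1:**
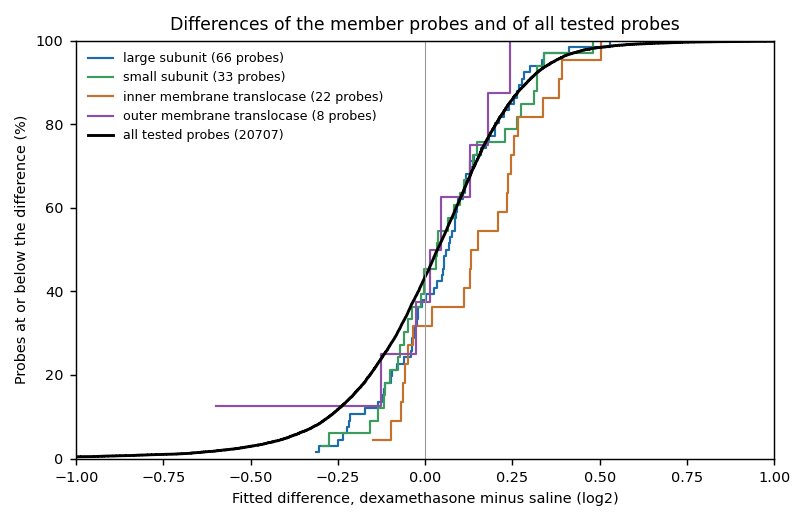
Cumulative share (%) of probes at or below each fitted log2 difference (dexamethasone minus saline), for each role of the members and for all tested probes. The large and small subunit curves are near that of all 20707 probes at the upper quartile (0.17, 0.15 and 0.17). At the lower quartile they lie to its right (-0.04 and -0.07, against -0.12). The inner membrane translocase curve lies to their right at its median of 0.14 and upper quartile of 0.25. At its lower quartile (-0.05) it is close to the large subunit curve.

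The scaling of the arrays bears on the direction. With the arrays scaled only to their 75th percentile, 86.8% of member probes were above 0 and their median was 0.42, while the median of all probes moved to -0.23. With the deposited table of signals, 88.4% of members were above 0 with a median of 0.23, and the median of all probes was 0.16. Relative to that median of all probes, 122 of 129 members were higher under the 75th percentile scaling, 87 with the deposited table and 73 with the main normalization. Agilent's processed signals gave 59 of 129. The sign relative to all probes thus changed with the normalization.

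**Figure D2:**
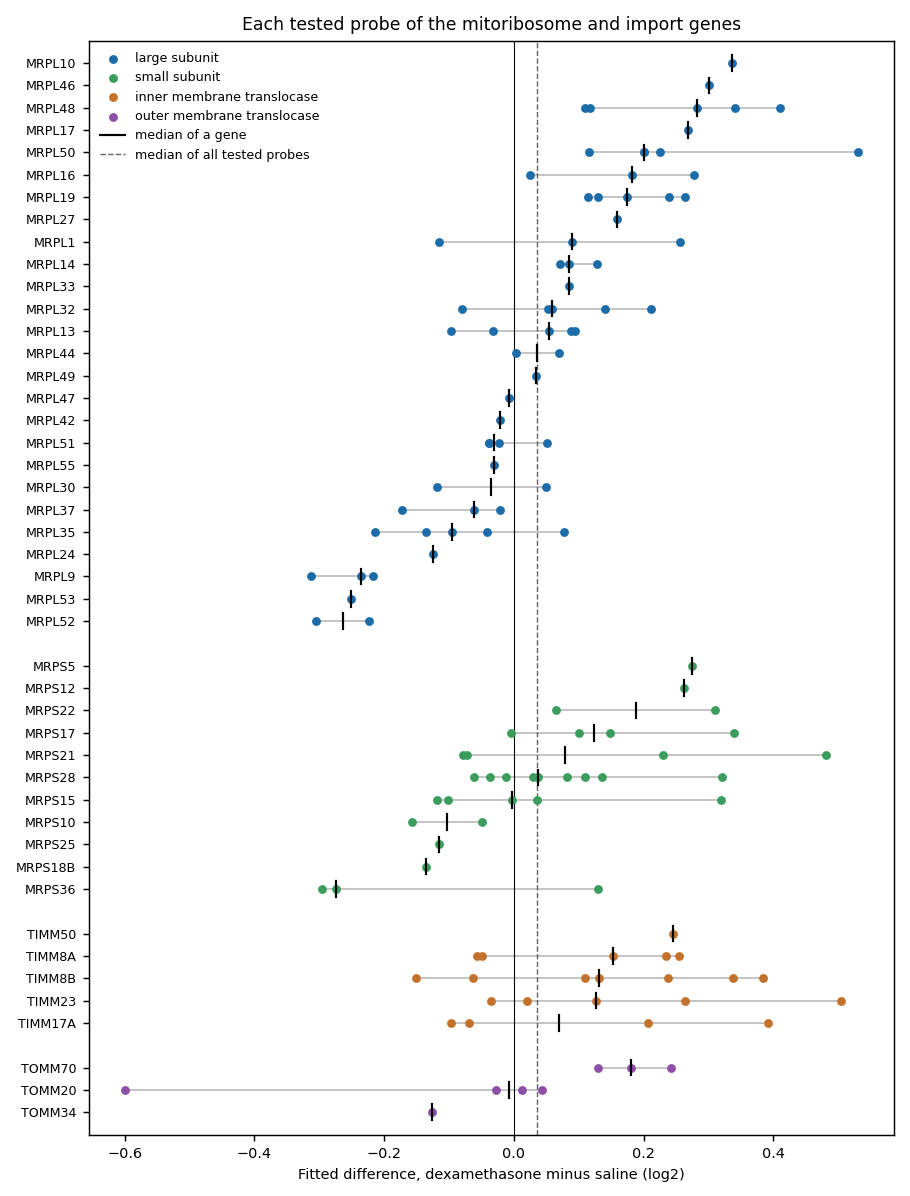
Fitted log2 difference (dexamethasone minus saline) of each of the 129 tested member probes (points), by gene and role, with the median of each gene (black tick) and the median of all tested probes (dashed line). Single probes reach from -0.60 (TOMM20) to 0.53 (MRPL50), and most genes have probes on both sides of the dashed line or close to it.

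The array covers many of these genes with overlapping probes of 60 bases, which serve as repeat measurements of 1 transcript. Among the tested members, 110 pairs of probes of the same gene shared at least 50 bases, and their fitted log2 differences lay a median of 0.12 apart. In 42 pairs the second probe started only 1 base after the first. These neighbours were a median of 0.14 apart, at most 0.56, and 20 of the 42 pairs (47.6%) had opposite signs. Of the 28 genes with at least 2 tested probes, 8 had all probes above 0, 4 had all below 0 and 16 had both signs. A difference of one probe was thus often not shared by a probe of nearly the same sequence.

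**Figure D3:**
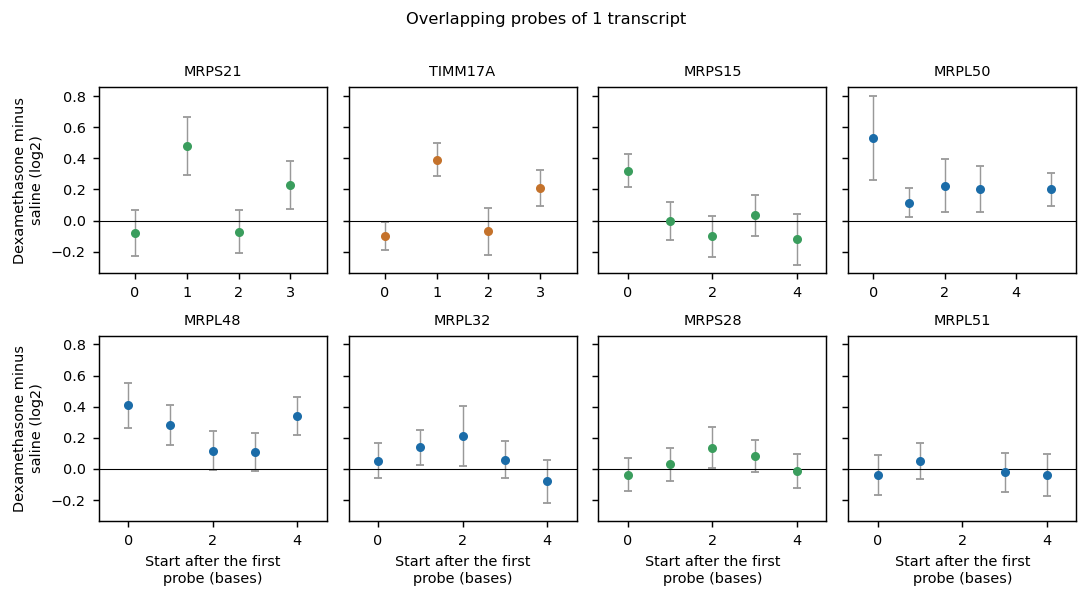
Fitted log2 difference (dexamethasone minus saline, points, with standard error) of overlapping probes against the number of bases by which each starts after the first of its set, for 8 genes. In MRPS21 and TIMM17A neighbours that start 1 base apart alternate between values of 0.21 to 0.48 and values of -0.10 to -0.07, whereas in MRPL48 and MRPL50 all points are above 0.

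The inner membrane translocase genes had the highest median difference of the roles, 0.14 over 22 tested probes, of which 15 were above 0. It was above 0 under every alternative run, between 0.07 and 0.69. All 5 genes tested had a median above 0, and 4 of the 22 probes (18.2%) had all dexamethasone samples above all saline samples, against 6.55% of all tested probes. These 4 come from 3 genes, and the pair from TIMM17A overlaps in sequence. TIMM17A shows how far overlapping probes can part. Its 5 probes cross an exon junction on the minus strand of chromosome 16, within chr16:69634894-69636956 (oryCun2), and share the 56 bases in capitals.
TIMM17A A_04_P093816: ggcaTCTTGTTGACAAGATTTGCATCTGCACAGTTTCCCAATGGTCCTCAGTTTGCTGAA
TIMM17A A_04_P093815: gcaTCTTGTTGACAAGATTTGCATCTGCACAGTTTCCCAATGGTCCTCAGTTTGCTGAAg
TIMM17A A_04_P093814: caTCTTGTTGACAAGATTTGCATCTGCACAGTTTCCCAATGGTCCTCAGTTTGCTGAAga
TIMM17A A_04_P093813: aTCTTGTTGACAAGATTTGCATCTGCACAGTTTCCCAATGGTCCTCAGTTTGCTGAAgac
TIMM17A A_04_P093812: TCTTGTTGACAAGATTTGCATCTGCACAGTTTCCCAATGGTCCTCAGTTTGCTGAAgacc

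In the order of these lines, the first probe differed by -0.10 ± 0.09 (log2, standard error), the second by 0.39 ± 0.11, the next by -0.07 ± 0.15 and A_04_P093813 by 0.21 ± 0.12. The second, A_04_P093815, read 11.92, 11.93, 11.86 and 12.05 in the dexamethasone samples and 11.49, 11.79, 11.31 and 11.61 in the saline samples. Every dexamethasone sample was above every saline sample, with an adjusted p of 0.339 in limma. The probe that starts 1 base before it read 11.83, 11.81, 11.83 and 11.96 in the dexamethasone samples and 11.96, 11.97, 11.88 and 12.00 in the saline samples, with overlapping groups and dexamethasone slightly lower. The last probe had too few saline values for the test, and with its flagged spots kept it was 0.26 higher.

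TIMM23, the central subunit of the presequence translocase, held the smallest p of all members. The pair of probes that carries it spans an exon junction on the plus strand of chromosome 18, within chr18:6004134-6005890, and shares the 59 bases in capitals.
TIMM23 A_04_P045471: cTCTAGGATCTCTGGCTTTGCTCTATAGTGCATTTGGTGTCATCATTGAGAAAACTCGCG
TIMM23 A_04_P045470: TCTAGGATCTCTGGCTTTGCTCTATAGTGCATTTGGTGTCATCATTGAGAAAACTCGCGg

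Probe A_04_P045470 read 11.85, 11.53, 11.90 and 11.80 in the dexamethasone samples and 11.18, 11.11, 11.44 and 11.33 in the saline samples. The groups did not overlap, and the difference was 0.50 ± 0.12 (standard error), a fold of 1.42, with an adjusted p of 0.271 in limma. Its neighbour A_04_P045471 read 11.22, 11.22, 11.89 and 11.85 in the dexamethasone samples and 11.99, 11.52, 10.78 and 10.82 in the saline samples. There the arrays of each group disagreed among themselves, and the difference was 0.26 ± 0.31. The other 3 TIMM23 probes, placed slightly downstream, differed by 0.13, 0.02 and -0.04.

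The small chaperones of the intermembrane space were mixed. TIMM8B had 7 tested probes from -0.15 to 0.38, of which 5 were above 0. Its probe of smallest p, A_04_P054590, read 12.73, 12.86, 12.56 and 12.82 in the dexamethasone samples and 12.47, 12.49, 12.51 and 12.15 in the saline samples. The groups did not overlap, and saline 4 stood below the other saline samples. At A_04_P054591, with the largest TIMM8B difference, saline 4 read 11.96 against 12.70 and 12.71 in saline 1 and 2, and saline 3 was flagged. Within Cy5 samples every tested TIMM8B probe was above 0, from 0.14 to 0.58. Within Cy3 samples only A_04_P054590 was above 0, at 0.16, and the others ran from -0.44 to -0.02. Where saline 3 was flagged, the Cy3 value rests on saline 1 alone. TIMM8A, whose human counterpart is the deafness-dystonia gene, had 5 probes from -0.06 to 0.25, of which 3 were above 0. One of them, A_04_P044007, is placed by the array annotation on chromosome 13 and the other 4 on chromosome X. TIMM50, which hands presequences on to the TIMM23 channel, read 10.83, 10.61, 10.78 and 10.62 with its single probe in the dexamethasone samples and 10.62, 10.56 and 10.31 in saline 1 to 3. It was 0.25 ± 0.13 higher, with overlapping groups.

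**Figure D4:**
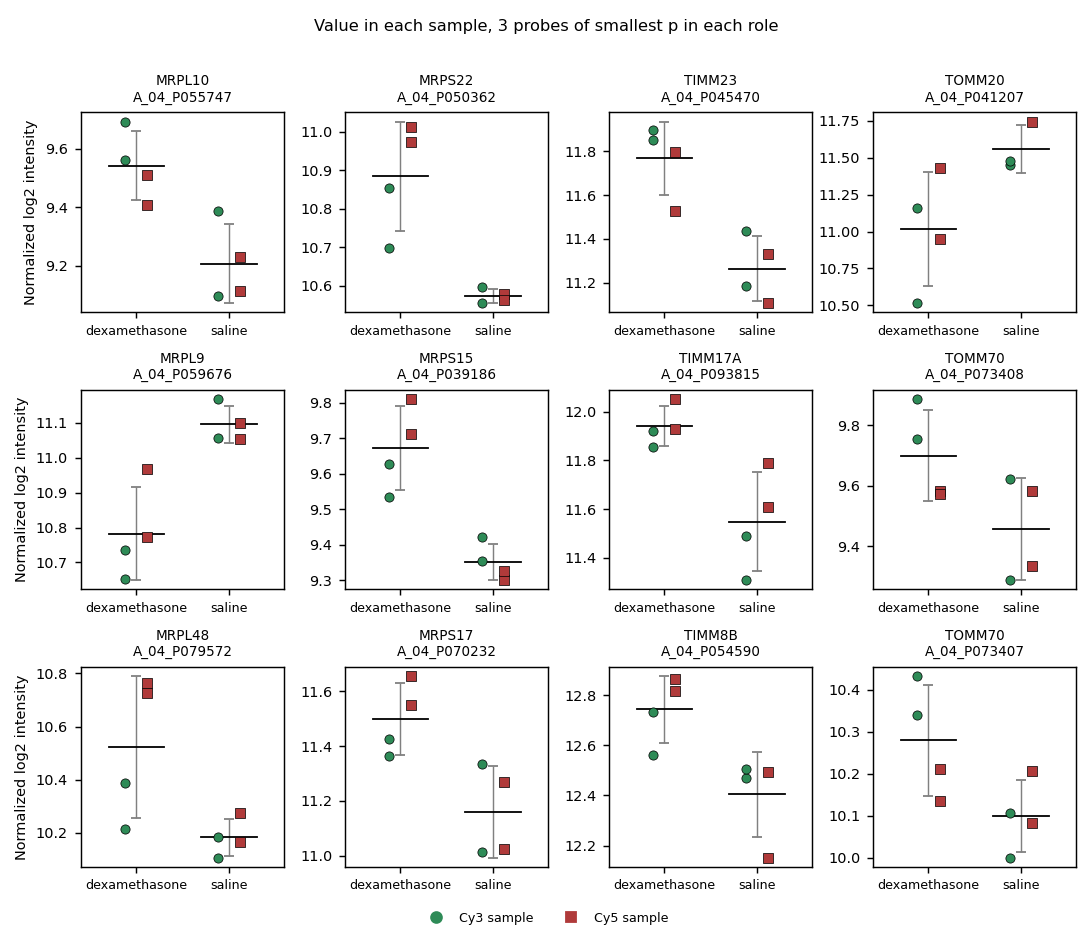
Normalized log2 intensity in each sample for the 3 probes of smallest p in each role, dexamethasone left and saline right, with circles for Cy3 and squares for Cy5 samples, the group mean (black line) and SD (grey bar). TIMM23 A_04_P045470 lies between 11.53 and 11.90 in dexamethasone samples and between 11.11 and 11.44 in saline samples, and no probe shown passed an adjusted p under 0.05.

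The outer membrane receptors gave opposite readings at single probes. TOMM20 had 8 probes, 5 of which overlap at the end of the coding sequence on the plus strand of chromosome 16, within chr16:33132019-33132927, and share the 56 bases in capitals. They are shown because only the last one could be tested, and it had the lowest difference of all members.
TOMM20 A_04_P041211: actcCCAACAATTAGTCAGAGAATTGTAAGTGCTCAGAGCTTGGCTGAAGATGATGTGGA
TOMM20 A_04_P041210: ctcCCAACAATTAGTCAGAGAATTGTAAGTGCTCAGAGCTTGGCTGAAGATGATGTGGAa
TOMM20 A_04_P041209: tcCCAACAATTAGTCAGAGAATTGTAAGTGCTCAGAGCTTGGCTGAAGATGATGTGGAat
TOMM20 A_04_P041208: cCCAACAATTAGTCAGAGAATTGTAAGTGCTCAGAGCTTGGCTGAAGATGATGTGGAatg
TOMM20 A_04_P041207: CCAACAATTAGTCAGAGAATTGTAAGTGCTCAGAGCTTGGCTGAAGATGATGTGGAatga

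Probe A_04_P041207 read 11.16, 11.43, 10.51 and 10.95 in the dexamethasone samples and 11.45, 11.48 and 11.75 in saline 1, 3 and 4, its saline 2 spot being flagged. All dexamethasone samples lay below all saline samples, some by little, and the difference was -0.60 ± 0.19 (standard error) with an adjusted p of 0.349 in limma. The other 4 overlapping probes lost both saline 3 and 4 or both saline 1 and 2 to flags, and with flagged spots kept they differed by -0.36, -0.25, 0.13 and -0.02. The first of these, A_04_P041211, has a standard error of 0.44 and rests on dexamethasone 3, which read 10.13, against 12.09, 12.13 and 12.17 in the other dexamethasone samples and 12.05, 12.15, 11.66 and 12.09 in the saline samples. The 3 TOMM20 probes farther downstream differed by 0.01, 0.04 and -0.03, each with a standard error near 0.1. TOMM70 was above 0 at all 3 probes, by 0.24, 0.18 and 0.13, with overlapping groups at each. TOMM34 read 9.52, 9.44, 9.10 and 9.33 in the dexamethasone samples and 9.47, 9.30, 9.62 and 9.52 in the saline samples, a difference of -0.13 ± 0.13. Over the 8 tested probes of the role the median difference was 0.03, and its sign was not settled. It was -0.05 with Agilent's processed signals, -0.030 without saline 3, -0.030 without the array of saline 3 and 4, -0.027 within Cy5 samples and -0.0040 with flagged spots kept.

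The large subunit had 66 tested probes of 26 genes with a median difference of 0.06, and 41 were above 0. By gene, 15 medians were above 0 and 11 below, and the median over probes had no settled sign. It was -0.04 within Cy3 samples, -0.021 without the array of saline 3 and 4 and -0.0064 with Agilent's processed signals, and 0.018 without dexamethasone 2. MRPL48 was above 0 at every probe. Its 5 probes lie on the minus strand of chromosome 1, within chr1:142648840-142649809, and share the 56 bases in capitals.
MRPL48 A_04_P079576: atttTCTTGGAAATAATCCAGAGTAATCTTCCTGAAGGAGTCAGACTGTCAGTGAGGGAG
MRPL48 A_04_P079575: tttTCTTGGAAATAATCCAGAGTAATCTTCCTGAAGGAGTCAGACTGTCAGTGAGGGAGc
MRPL48 A_04_P079574: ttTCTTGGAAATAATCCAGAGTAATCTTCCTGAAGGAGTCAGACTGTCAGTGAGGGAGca
MRPL48 A_04_P079573: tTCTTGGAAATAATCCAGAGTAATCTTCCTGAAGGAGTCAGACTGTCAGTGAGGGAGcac
MRPL48 A_04_P079572: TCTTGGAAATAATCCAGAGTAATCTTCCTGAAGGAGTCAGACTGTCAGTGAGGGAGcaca

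All 5 were above 0, by 0.41, 0.28, 0.12, 0.11 and 0.34 in the order of these lines, with standard errors of 0.12 to 0.14. Probe A_04_P079572 read 10.21, 10.73, 10.39 and 10.77 in the dexamethasone samples and 10.18, 10.27, 10.11 and 10.16 in the saline samples. The Cy5 samples dexamethasone 2 and 4 carried most of the difference, and dexamethasone 1 overlapped the saline samples. Its difference was 0.16 within Cy3 samples and 0.53 within Cy5 samples, and its adjusted p was 0.365 in limma.

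MRPL50 was above 0 at all 5 overlapping probes, from 0.12 to 0.53, and gave the highest difference of any member. That probe, A_04_P049601, read 10.68, 10.61, 10.52 and 10.55 in the dexamethasone samples and 10.53, 10.64, 9.52 and 9.55 in the saline samples. Saline 1 and 2 were at the level of the dexamethasone samples and saline 3 and 4, from one array, were low. Without the array of saline 3 and 4 the difference was 0.0047, and without that of saline 1 and 2 it was 1.06. The MRPL50 probe A_04_P049598 read 10.38, 10.47, 9.95 and 9.98 in saline 1 to 4, again low in saline 3 and 4. At A_04_P049600 saline 3 and 4 both read 9.96 and were not below saline 1, which read 9.88. MRPL19 was likewise above 0 at all 5 probes, from 0.11 to 0.26, MRPL16 at all 3 tested, from 0.03 to 0.28, MRPL14 at all 3, from 0.07 to 0.13, and MRPL44 at both, 0.0026 and 0.07. At each MRPL19 probe the unflagged values of saline 3 and 4 lay below those of saline 1 and 2. Probe A_04_P079958 read 9.92, 9.92, 9.74 and 9.96 in the dexamethasone samples and 9.95, 9.99, 9.54 and 9.59 in the saline samples. The MRPL19 probes thus share the low saline array and are not separate evidence. MRPL10, a protein at the base of the ribosomal stalk, read 9.56, 9.51, 9.69 and 9.41 in the dexamethasone samples and 9.39, 9.23, 9.10 and 9.11 in the saline samples. Its groups nearly touched without overlapping, with a difference of 0.34 ± 0.11 and an adjusted p of 0.350.

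MRPL9 had the smallest p on the lower side of the large subunit. Probe A_04_P059676 read 10.74, 10.97, 10.65 and 10.77 in the dexamethasone samples and 11.17, 11.05, 11.06 and 11.10 in the saline samples. Probe A_04_P059673, which starts 3 bases later, read 11.50, 11.57, 11.54 and 11.56 in the dexamethasone samples and 11.75, 11.79, 11.71 and 11.79 in the saline samples. At both probes all dexamethasone samples lay below all saline samples, by -0.31 ± 0.10 and -0.22 ± 0.08, with adjusted p-values of 0.354 and 0.381 in limma. The other tested probe differed by -0.24 with overlapping groups. Both named probes changed sign when the arrays were scaled only to their 75th percentile, to 0.15 and 0.37, and a probe starting 1 base before the second was 0.18 higher with its flagged spots kept.

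MRPL37 was below 0 at all 3 tested probes, from -0.17 to -0.02, and MRPL52 at both, -0.30 and -0.22. MRPL53, with 1 probe, differed by -0.25 ± 0.11. MRPL35 was below 0 at 4 of 5 probes, from -0.21 to 0.08, and MRPL51 at 3 of 4, from -0.04 to 0.05. Around 0 lay MRPL13, with 3 of 5 probes above it and a range of -0.10 to 0.09, and MRPL32, with 4 of 5 above it and a range of -0.08 to 0.21. MRPL1 ran from -0.12 to 0.26 over 3 probes and MRPL30 from -0.12 to 0.05 over 2. None of these passed the test, and the remaining large subunit genes with a tested probe had 1 each, from -0.13 (MRPL24) to 0.30 (MRPL46). The MRPL46 probe was dim, from 8.28 to 8.85. It was well above background in 4 dexamethasone samples but only 2 saline samples.

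The small subunit had 33 tested probes of 11 genes with a median difference of 0.04, and 18 were above 0. The median had no settled sign: it was -0.011 without dexamethasone 4, -0.011 without saline 4, 0.098 without saline 1, -0.06 within Cy3 samples and -0.05 with 1 probe a gene. MRPS22 had the smallest p of the role. Its probe A_04_P050362 read 10.85, 11.01, 10.697 and 10.97 in the dexamethasone samples and 10.60, 10.58, 10.56 and 10.56 in the saline samples. The saline samples were nearly equal and all lay below the dexamethasone samples, by 0.31 ± 0.10 with an adjusted p of 0.351 in limma. Its second probe differed by 0.06 ± 0.10.

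MRPS15 had the same pattern at 1 of 5 overlapping probes. A_04_P039186 read 9.63, 9.71, 9.53 and 9.81 in the dexamethasone samples and 9.42, 9.30, 9.35 and 9.33 in the saline samples, without overlap and with a difference of 0.32 ± 0.11. The 4 probes that start 1 to 4 bases later differed by -0.12 to 0.04. MRPS21 gave the highest difference of the role at A_04_P035925, which read 10.10, 10.43, 10.48 and 10.55 in the dexamethasone samples and 10.27, 10.08, 9.67 and 9.61 in the saline samples. Dexamethasone 1 fell among the saline samples, the difference was 0.48 ± 0.19, and the probes starting 1 base to either side of it differed by -0.08 and -0.07.

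MRPS17 was above 0 at 3 of 4 tested probes, and A_04_P070232 read 11.36, 11.66, 11.43 and 11.55 in the dexamethasone samples and 11.34, 11.27, 11.01 and 11.02 in the saline samples. The groups were separated by a narrow gap, with a difference of 0.34 ± 0.12 and an adjusted p of 0.366. MRPS28 had 9 tested probes from -0.06 to 0.32, of which 6 were above 0. MRPS10 was below 0 at both probes, -0.16 and -0.05. MRPS12, whose protein lines the decoding site, was 0.26 ± 0.15 higher with overlapping groups, and MRPS5 was 0.28 ± 0.12 higher. MRPS36 (KGD4), which is no longer counted as a ribosomal protein, was below 0 at 2 of 3 probes, with -0.30 ± 0.16 at its lowest.

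Of the 168 members, 6 were not detected often enough to test, all of them probes of TOMM paralogs. The 5 probes of TOMM20L were not well above background in any of the 8 samples, and the probe of TOMM40L only in 2 dexamethasone samples. The other 33 untested probes were bright enough but had fewer than 3 unflagged values in a group. With flagged spots kept, 18 of these 33 were above 0, their median difference was 0.02, and 3 were higher at an unadjusted p under 0.05 with none lower. Among the 9 genes without any tested probe, TIMM10 then differed by 0.24 ± 0.11, TIMM22 by -0.11 ± 0.09, MRPL18 by 0.16 ± 0.11, MRPL41 by 0.04 ± 0.13, MRPS18A by 0.08 ± 0.12, MRPS26 by -0.05 ± 0.13 and MRPS35 by -0.20 ± 0.20. None of the 162 probes passed an adjusted p under 0.05 in that limma fit, which called 0.0259% of its 23168 probes. At an unadjusted p under 0.05, 15 of the 162 were higher and 3 lower, against 6.98% and 5.78% of all probes in that fit.

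Over the 100 member probes with all 8 values, the median deviation from a probe's mean was -0.07, 0.09, -0.03 and 0.13 (log2) in dexamethasone 1 to 4 and 0.01, 0.01, -0.08 and -0.03 in saline 1 to 4. The Cy5 dexamethasone samples were the highest of the 8 and the Cy3 dexamethasone samples lay among the saline samples. Within Cy3 samples alone the median member difference was -0.0043, with 62 of 124 probes above 0, and within Cy5 samples it was 0.14, with 79 of 105 above 0. The median over all tested probes was 0.04 within Cy3 and 0.02 within Cy5. Each group holds 2 samples of each colour, and without the dye term the median member difference was again 0.06, with 80 members above 0. Each colour holds different samples, so within a group dye and sample cannot be told apart.

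**Figure D5:**
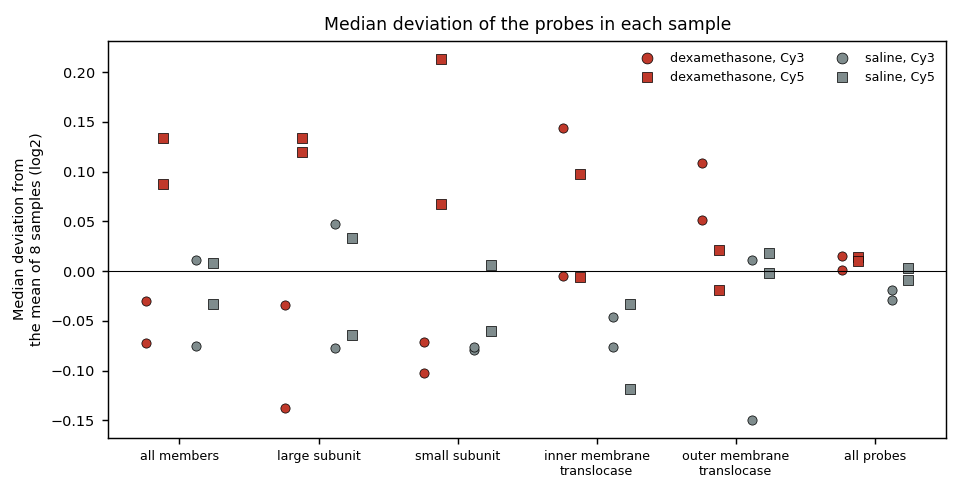
Median deviation (log2) of the probes with all 8 values from their mean over samples, per sample, for the members, each role and all probes, dexamethasone left of saline, with circles for Cy3 and squares for Cy5. Across the 100 members the Cy5 dexamethasone samples lie at 0.09 and 0.13 and the Cy3 dexamethasone samples at -0.07 and -0.03, among the saline samples.

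Single arrays changed what could be called. Without the array of saline 1 and 2, 24 of 129 member probes, from 18 genes, passed an adjusted p under 0.05 in limma, 21 higher and 3 lower. Over the whole array 3010 of 20624 probes passed in that fit, so calls were frequent among all probes and not only among members. That fit took a correlation of -0.30 between the samples of an array, against 0.23 with all 4 arrays. With the correlation held at 0.23, 1 member passed, the MRPL50 probe A_04_P049601 (adjusted p = 0.031), and 145 probes passed over the array. Leaving out any of the other arrays gave no member call.

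Genes that work beside the members were read at their brightest probe, with the main normalization only. None passed an adjusted p under 0.05 in limma, over all probes tested. With the whole array reduced to the brightest probe of each gene, 54.3% of 11263 differences were above 0. How the direction of these lists changes with the normalization was not tested. Of 10 mitochondrial translation factors tested, 6 were above 0 with a median of 0.10, and the smallest p-values were those of MTRFR, a peptide release factor-like protein (0.30 ± 0.12), and LRPPRC, which stabilises mitochondrial messenger RNA (0.30 ± 0.13). Of 10 mitochondrial aminoacyl-tRNA synthetase genes, 8 were above 0 with a median of 0.13, led by IARS2 (0.32 ± 0.17) and NARS2 (0.30 ± 0.18). Of 4 tested genes listed as ribosomal or ribosome-bound proteins with other names, 2 were above 0. They were OXA1L, an inner membrane insertase that binds the ribosome, at 0.13 ± 0.10, and the small subunit protein PTCD3 at 0.22 ± 0.19. The 12 assembly and RNA modification factors had a median of 0.01 and 8 above 0, with the GTPase NOA1 at 0.49 ± 0.12 and HSD17B10, a subunit of mitochondrial RNase P, at 0.26 ± 0.14.

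For the 5 genes of mitochondrial DNA upkeep and transcription the median was 0.01 with 3 above 0. TEFM, a transcription elongation factor, differed by 0.50 ± 0.13 without overlap of the groups, and TFAM, which packages mitochondrial DNA, by 0.43 ± 0.23. The 14 import helpers and chaperones had a median of 0.11 and 10 above 0, with DNAJA3, a co-chaperone of the matrix, at 0.51 ± 0.12 without overlap and HSPE1, the matrix chaperonin partner, at 0.33 ± 0.17. Of the 7 regulators of mitochondrial biogenesis, 6 were below 0 with a median of -0.11 and none had an unadjusted p under 0.05, the smallest being those of PPARGC1B (-0.36 ± 0.21) and GABPB1 (-0.20 ± 0.15).

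The respiratory chain and ATP synthase list had 21 of 25 genes above 0 and a median of 0.17, with ATP5F1B, the catalytic ATP synthase subunit, at 0.36 ± 0.13 and UQCRC1, of complex III, at 0.32 ± 0.13. The 25 cytosolic ribosomal protein genes had a median of 0.03, as all tested probes did, with RPS27A at -0.34 ± 0.12 and RPL7A at 0.23 ± 0.10.

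Markers of cell types also differed in their values. The 5 tested markers of cycling cells were all below 0, with a median of -0.44. In 4 of the 5 all dexamethasone samples lay below all saline samples, against 5.86% of all tested probes. The lists were chosen with earlier results of these data known, so such counts only describe them. The 5 oligodendrocyte markers tested had a median of 0.29, with 4 above 0. At an unadjusted p under 0.05 in limma, 3 of them were higher and 1, CLDN11, was lower at -0.46 ± 0.17. Of all tested probes, 6.73% were higher and 5.95% lower at that limit. The 6 neuron markers had a median of 0.18, with 4 above 0. The only neuron marker at an unadjusted p under 0.05 was the synaptic vesicle protein SYT1, which was lower at -0.32 ± 0.13. Of 8 astrocyte markers 7 were above 0, with a median of 0.15. At an unadjusted p under 0.05 in limma 3 of the 8 were higher and 1 lower, beside the same 6.73% and 5.95% of all tested probes. The medians of the other lists, with 2 to 4 markers tested each, were -0.12 for oligodendrocyte precursors, -0.15 for microglia and macrophages, -0.02 for endothelial cells and pericytes, -0.09 for blood cells, 0.25 for choroid plexus and ependyma and 0.10 for liver and skeletal muscle. Single markers went further, without overlap of the groups. S100A9, of the blood list, differed by -0.93 ± 0.13, and ABCB1, of the endothelial list, by 0.73 ± 0.14. Of the 4 blood markers 2 were above 0 and 2 below, and of the 3 endothelial markers 1 was above and 2 below. None of the markers passed an adjusted p under 0.05 in limma, and their part in the member values was not tested.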

How the data were processed

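The scanner files that the authors deposited give, per the file headers, the mean intensity and local background intensity of each spot and dye and a processed signal from Agilent Feature Extraction 11.0.1.1. The submitters' processing notes name release 10.7.3.1. The deposited table of signal per sample equals median minus background median intensity of a sample's own channel over 1 constant a column, and each of its 8 columns has a median of 1. Its scale and direction are thereby known. Coordinates are those of oryCun2, per the file headers, and probe sequences are those of the scanner files. Gene symbols came from the RefSeq table, by the gene ID in the array description, or else by accession or the array's own symbol.

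Here, intensity was corrected with normexp (offset 50), normalized by loess within arrays and Aquantile between arrays, and split by channel with limma 3.58.1 in R 4.3.3. Control and outlier spots were left out and spots of a probe averaged. A probe was tested if 4 or more of the 8 samples were well above background and each group had 3 or more values. The limma fit on the log2 scale had dye as a term and array as a random block (correlation 0.23), 2-sided, with Benjamini-Hochberg adjustment over 20707 probes. The fit was also run on simulated data that held no slide or scan effect. That run cannot show how slide and scan bear on the calls.

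Members and gene lists were chosen with earlier results of these data known. Named genes are those of the 5 smallest p-values and the extremes of each role, every gene with at least 2 tested probes, main subunits, and the 2 smallest p-values of each other list. Processed signals, other background and scaling steps, filters, terms, left-out samples and arrays, 1 probe a gene and the deposited signals were tried as alternatives. Promoter motifs were not analysed here.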

Additional observations from a re-analysis of the deposited data

Results flagged for a closer look

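TIMM8B probe A_04_P054590 was picked out because 1 saline sample stood far from the others. Saline 4 read 12.15 in log2 intensity, and the nearest other saline sample read 12.47, a gap of 0.897 of the group's range, above Dixon's 95% critical value for 4 samples. This was the only one among 42 groups of named probes examined, and chance alone flags about 1 group in 20. Saline 4 shares its array with saline 3, which read 12.51.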

How the results depend on the processing

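With all samples, no member probe was called by limma in any alternative except the 75th percentile scaling, which called 1 (TIMM23 A_04_P045470, adjusted p = 0.035). Of the arrays left out, only that of saline 1 and 2 gave member calls, 24 of 129, beside 3010 of 20624 probes over the array. With the correlation of all 4 arrays, an alternative chosen after seeing the data, it gave 1. The count over all probes, 7, was 14 with processed signals, 11 with plain subtraction, 3345 with 75th percentile scaling, 3 with quantile normalization, 2 with no filter on dim probes, 2 with detection in all 8 samples, 28 without the array block, 19 without the dye term and 12 at an adjusted p under 0.1. It was 0 within Cy3 samples and 0 within Cy5 samples. Leaving out the array of dexamethasone 3 and 4 gave 2, that of dexamethasone 1 and 2 gave 0, that of saline 3 and 4 gave 163 and that of saline 1 and 2 gave 3010; with the correlation of all 4 arrays these were 2, 0, 10 and 145. Leaving out 1 sample at a time gave 0 to 11 calls over all probes, 0 among members, a member median of 0.02 to 0.10 and 71 to 95 members above 0. Without the array of saline 3 and 4 the member median fell to 0.0075, below the median of all probes, 0.03. In that fit 67 of 129 members were above 0 and 58 were above the median of all probes. The member median was 0.09 without the array of saline 1 and 2. It was 0.10 without that of dexamethasone 1 and 2 and 0.03 without that of dexamethasone 3 and 4.

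The member median, 0.06, moved beyond the spread between samples to 0.42 with 75th percentile scaling, 0.23 with the deposited table and 0.14 within Cy5 samples. With 1 probe a gene, 24 of 45 members were above 0. Signs turned at MRPL9 A_04_P059676 (0.15), MRPL9 A_04_P059673 (0.37), TOMM70 A_04_P073409 (-0.045), MRPS36 A_04_P044879 (0.25) and TIMM8B A_04_P033153 (0.47) with 75th percentile scaling, and at MRPS36 A_04_P044879 (0.041) and TIMM8B A_04_P033153 (0.0094) with processed signals. The same TIMM8B probe read 0.00062 with the deposited table, 0.025 without dexamethasone 3 (-0.29 to 0.025 over the samples left out one at a time), 0.23 without the array of dexamethasone 3 and 4 (under either correlation) and 0.14 within Cy5 samples. TOMM34 A_04_P082667 read 0.0059 without the array of dexamethasone 3 and 4 and TOMM70 A_04_P073409 -0.036 within Cy5 samples. The cause was not tested.

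Same-numbered samples deviated in opposite directions (correlations of -0.31 to -0.11), and 0 of 4 matched best with their own number. Group and dye means had been removed first, and same-numbered samples share a dye, which by itself pushes these correlations below 0. Whether the numbers pair samples could thus not be decided. The fit with the replicate number as a block, which also drops the dye term and the array block, called 0 probes and 0 members, with a member median of 0.06. Leaving out only the array block gave 28 called probes, and leaving out only the dye term gave 19. Intensity over background limits only 9 of 168 members, which were not well above background in all 8 samples.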
